A study of Mus musculus with 8 samples.

Results

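The genes described here are 39 genes of T cells and natural killer (NK) cells, measured in myeloid cells sorted from mouse tumours. They were chosen by name as T cell, NK cell and cytotoxic genes, by no rule on their values. Earlier results of these data were known when they were chosen. Of the 39, 36 had an array row that the platform annotation gives to exactly 1 gene, of 22180 genes in all. The other 3, Cd247, Lck and Tcf7, were not analysed here. For the symbol with more than 1 such row, Gata3, the row with the highest mean was kept. The 36 comprise 23 T cell genes, 11 NK and cytotoxic genes, and 2 transcription factor genes that both lineages use, Tbx21 and Eomes. The irradiated group was 4 mice whose tumour received 20 Gy from a small-animal irradiator, and the sham group was 4 mice given a sham treatment. All 8 were female C57BL/6 mice, 8 weeks old, that carried a subcutaneous tumour grown for 14 days from cell line 152. That line came from spontaneous tumours of KPC mice (KrasLSL-G12D/+, Trp53LSL-R172H/+, Pdx1-Cre), so the alleles are in the tumour line and not in the host, and the model is 1 line grown under the skin. Tumours were taken 1 day after treatment and cells were sorted as CD45+ CD11b+ Ly6Chi, the profile of inflammatory monocytes and macrophages, with 1 array per mouse.

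T cells recognise antigen through a receptor whose signal is carried by the CD3 chains, and CD4 and CD8 are the coreceptors that divide helper from cytotoxic T cells. NK cells lack that receptor and sense targets through receptors such as NKG2D and NKp46. Both lineages kill with perforin and granzymes held in granules and secrete interferon gamma. Neither is a target of the sort, although mouse NK cells carry CD11b as they mature and Ly6C is also found on memory CD8 T cells and on NK cells. The values are log2 levels, and levels of different genes are not compared, since each gene has its own probes. The sort's own genes were high on every array: Ptprc (CD45) stood at 11.50 to 11.71 in irradiated mice and 11.60 to 11.71 in sham mice. Itgam (CD11b) stood at 10.99 to 11.28 in irradiated and 10.68 to 11.09 in sham mice, and Ly6c2 (Ly6C) at 10.77 to 12.45 and 11.03 to 11.98. Of the label's T and NK markers, Nkg7 lay above the median of all values, 4.70, on every array, at 6.30 to 9.76. Cd3g, at 4.67 to 9.66, lay above it on all arrays but that of irradiated mouse 2. The levels of these 2 genes were thus uneven from mouse to mouse. The median of all values is no detection limit, so presence is not read from values near it. In bulk RNA, fewer cells of a type and less RNA per cell cannot be told apart.

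Start regions are shown for 6 of the genes whose levels differed widely between arrays and moved together. Of these, 4 are NK and cytotoxic (Nkg7, Gzma, Gzmb, Xcl1) and 2 are T cell genes (Cd3d, Cd3g). Other genes with that pattern are not shown, among them Ifng and Cd8a, whose windows hold none of the words marked here. Cd3d and Cd3g are neighbours that point away from each other, and the windows shown lie 854 bases apart. Each window runs from 250 bases before to 50 bases after the gene's start in RefSeq, build GRCm38.p6, and is written 5′ to 3′ on the gene's strand. Capitals mark 4 short words searched on both strands: TGTGGT, a RUNX core, CAGGAA, an ETS core, AGGTGT, a T-box core, and CTTTGA, a TCF core. No 2 matches overlap in these windows.
Cd3d, chr9:44981536-44981835, plus strand: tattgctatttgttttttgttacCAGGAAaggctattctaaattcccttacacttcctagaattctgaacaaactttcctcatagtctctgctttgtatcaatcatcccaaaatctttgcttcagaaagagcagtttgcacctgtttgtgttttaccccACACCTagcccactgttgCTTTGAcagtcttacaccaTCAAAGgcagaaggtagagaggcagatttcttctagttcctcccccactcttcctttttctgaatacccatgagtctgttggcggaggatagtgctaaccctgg
Cd3g, chr9:44980382-44980681, minus strand: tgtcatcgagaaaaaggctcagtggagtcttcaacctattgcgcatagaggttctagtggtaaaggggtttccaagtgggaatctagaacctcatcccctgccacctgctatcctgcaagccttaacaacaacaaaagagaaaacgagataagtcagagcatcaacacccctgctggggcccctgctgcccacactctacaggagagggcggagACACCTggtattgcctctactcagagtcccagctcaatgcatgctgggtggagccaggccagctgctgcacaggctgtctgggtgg
Nkg7, chr7:43436888-43437187, plus strand: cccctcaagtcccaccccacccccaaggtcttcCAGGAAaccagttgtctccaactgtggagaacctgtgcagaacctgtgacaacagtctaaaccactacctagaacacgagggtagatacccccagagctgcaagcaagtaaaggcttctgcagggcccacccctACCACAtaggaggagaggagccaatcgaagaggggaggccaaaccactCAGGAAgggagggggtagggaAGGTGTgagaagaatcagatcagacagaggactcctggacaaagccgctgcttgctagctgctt
Gzma, chr13:113100932-113101231, minus strand: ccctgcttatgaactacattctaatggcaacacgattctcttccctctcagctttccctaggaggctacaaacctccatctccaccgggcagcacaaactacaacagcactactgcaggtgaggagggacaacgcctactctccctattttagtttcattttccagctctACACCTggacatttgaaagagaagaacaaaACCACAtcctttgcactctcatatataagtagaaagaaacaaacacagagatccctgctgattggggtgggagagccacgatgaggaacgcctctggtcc
Gzmb, chr14:56262285-56262584, minus strand: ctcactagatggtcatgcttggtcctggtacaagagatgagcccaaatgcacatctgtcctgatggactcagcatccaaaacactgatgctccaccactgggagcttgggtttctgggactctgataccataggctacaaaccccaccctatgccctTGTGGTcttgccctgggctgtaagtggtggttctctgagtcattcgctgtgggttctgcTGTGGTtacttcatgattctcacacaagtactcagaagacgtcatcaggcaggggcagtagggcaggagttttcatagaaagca
Xcl1, chr1:164935473-164935772, minus strand: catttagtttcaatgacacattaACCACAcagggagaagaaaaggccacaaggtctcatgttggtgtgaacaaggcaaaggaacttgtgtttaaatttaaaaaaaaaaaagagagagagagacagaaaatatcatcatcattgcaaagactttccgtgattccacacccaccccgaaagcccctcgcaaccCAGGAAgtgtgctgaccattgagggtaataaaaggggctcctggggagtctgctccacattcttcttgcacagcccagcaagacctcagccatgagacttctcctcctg

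RefSeq start regions were at hand for 24 of the 36 genes, 13 of them T cell and 9 NK and cytotoxic genes. The RUNX word was in 8 of the 9 NK and cytotoxic windows, all but Ifng, and in 1 of the 13 T cell windows, that of Lat; 16.9% of 27025 windows of this length hold it. The ETS word was in 5 of 9 NK and cytotoxic and 6 of 13 T cell windows, against 30.4% of all windows. The T-box word was in 3 of 9 and 5 of 13, against 13.9%. The TCF word was in 1 of 9 and 5 of 13, against 16.2%. These counts describe letters in the windows and were not tested; for genes with several windows the entry listed first was used.

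T and NK cell genes differed far more from mouse to mouse than between irradiated and sham mice. On the log2 scale, 18 of the 36 spanned more than 2 over the 8 arrays, against 1.38% of all genes, and the median span was 1.92 for the 36 and 0.58 for all genes. In 27 of the 36 the 2 highest arrays were sham mice 2 and 3, an order that 4.56% of all genes show. In 17 of the 36 the 4 highest arrays were irradiated mice 1 and 4 and sham mice 2 and 3, against 2.42% of all genes. That order was seen in 9 of the 23 T cell genes, 7 of the 11 NK and cytotoxic genes and Tbx21. It was noticed in these data, so the counts describe the arrays and are no test.

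**Figure D1:**
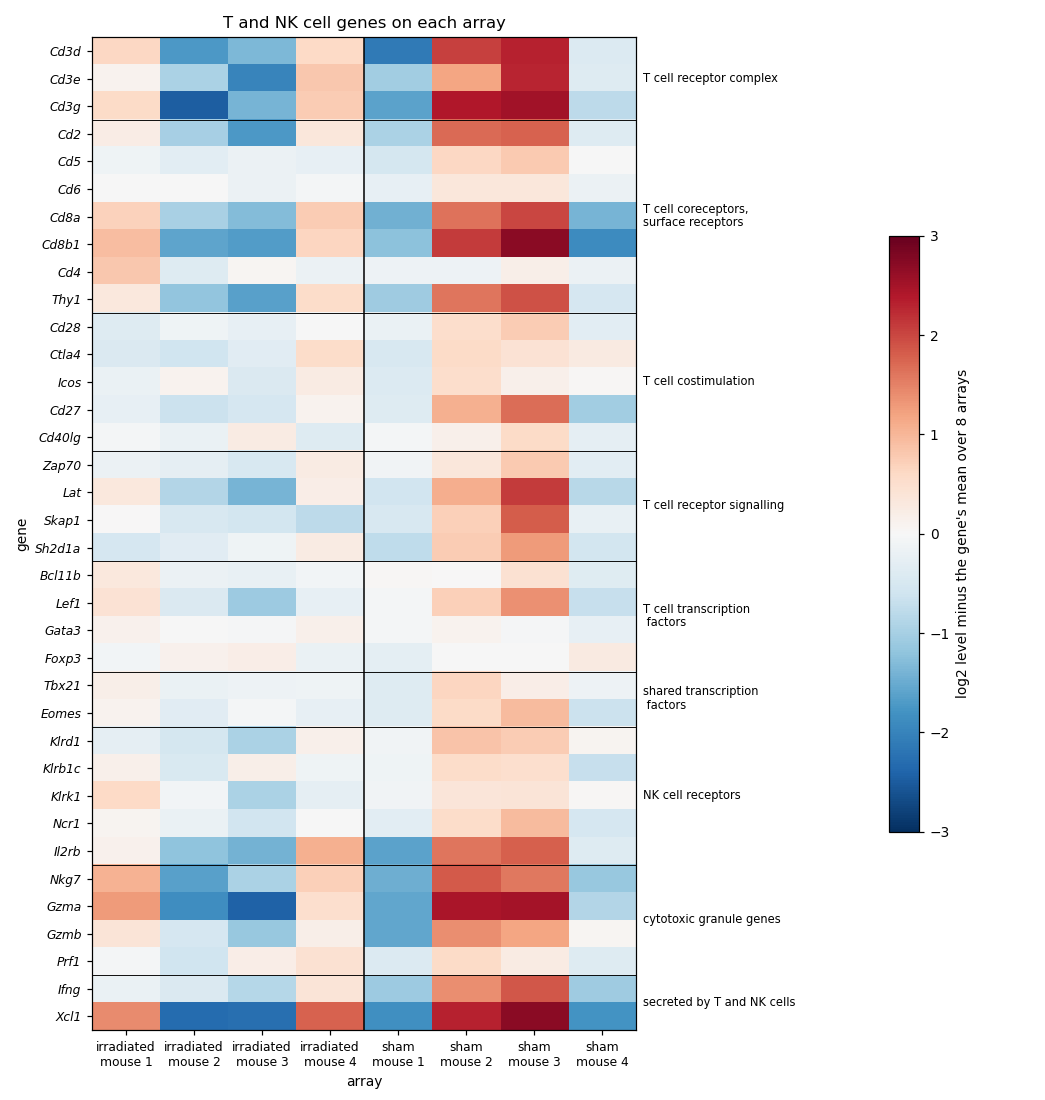
Each row is 1 of the 36 genes, grouped by role, and each column is 1 array, irradiated mice 1 to 4 left of sham mice 1 to 4; colour gives the log2 level minus the gene's mean over the 8 arrays. The columns of sham mice 2 and 3 are red in most rows, irradiated mice 1 and 4 are paler red in Cd3d, Cd8b1, Nkg7, Gzma and Xcl1, and the rows of Foxp3 and Gata3 are nearly flat.

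The CD3 chains, which couple the T cell receptor to its signal, gave the clearest picture of the T cell genes. Cd3g, the gamma chain gene, stood at 7.70, 4.67, 5.74 and 7.89 in irradiated mice 1 to 4, against 5.53, 9.53, 9.66 and 6.36 in sham mice 1 to 4. Sham mice 2 and 3 lay above every irradiated mouse, while sham mice 1 and 4 lay within the irradiated range, so the groups overlapped. The span of Cd3g, 4.99 on the log2 scale, is 31.8-fold between irradiated mouse 2, whose value lies just under the median of all values, and sham mouse 3. The group difference was -1.27 ± 1.02 (SE; 95% interval -3.54 to 1.00; adjusted p = 0.878 in limma), and a two-sided exact permutation over the 70 assignments of the mice gave p = 0.371, where the smallest possible is 0.0286. Cd3d, the delta chain gene, spanned 4.44 and Cd3e, the epsilon chain gene, 4.27, both with sham mouse 3 highest.

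The coreceptor genes split. Cd8b1, the CD8 beta chain gene, stood at 7.95, 5.43, 5.33 and 7.67 in irradiated mice 1 to 4, against 5.79, 9.12, 9.73 and 5.12 in sham mice 1 to 4. Irradiated mice 1 and 4 thus lay more than 2 log2 units above irradiated mice 2 and 3, and sham mice 2 and 3 more than 3 above sham mice 1 and 4. Cd8a, the alpha chain gene and the neighbour of Cd8b1 on chromosome 6, stood at 7.07, 5.42, 5.08 and 7.16 in irradiated mice, against 4.96, 8.01, 8.40 and 4.99 in sham mice. Cd4, the coreceptor gene of helper T cells, spanned 1.20, with its highest value of 5.73 in irradiated mouse 1 and values of 4.52 to 5.09 on the other 7 arrays. The level of Cd8a minus that of Cd4 was 1.35, 0.90, 0.09 and 2.42 in irradiated mice, against 0.18, 3.23, 3.31 and 0.24 in sham mice. The pattern of Cd8a was thus not shared by Cd4, a contrast picked after the values were seen. Cd4 averaged 4.92 over the 8 arrays, little above the median of all values. Differences in it are therefore uncertain, and Cd8a minus Cd4 mostly follows Cd8a.

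Other surface genes of T cells followed the CD3 and CD8 genes to different degrees. Cd2, an adhesion receptor gene of T and NK cells, spanned 3.51 and Thy1, the gene of a surface glycoprotein of T cells that other cell types also carry, 3.54, both with irradiated mouse 3 lowest and sham mouse 3 highest. Cd5 and Cd6, neighbouring genes of scavenger-type receptors that tune T cell receptor signals, spanned 1.30 and 0.58.

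The costimulatory receptor genes varied less. Cd27, a TNF receptor family member of T, NK and B cells, stood at 5.22, 4.83, 4.95 and 5.57 in irradiated mice, against 5.08, 6.52, 7.14 and 4.41 in sham mice. Sham mice 2 and 3 were again above all irradiated mice, and sham mouse 4 was below them. Cd28, the main costimulatory receptor gene, Ctla4, its inhibitory relative, and Icos, the inducible member of that family, lie side by side on chromosome 1 and spanned 1.14, 1.17 and 0.95. Cd40lg, the gene of the CD40 ligand of helper T cells, had a mean of 3.40, under the median of all values, so differences in it are uncertain.

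Among the genes that relay the receptor's signal, Lat, the membrane adaptor, stood at 7.02, 5.85, 5.31 and 6.90 in irradiated mice, against 6.14, 7.81, 8.80 and 5.89 in sham mice. The same 4 arrays were highest as for the CD3 genes. Skap1, an adaptor that links the receptor to integrins, had the smallest p of the T cell genes. It stood at 5.26, 4.76, 4.70 and 4.47 in irradiated mice, against 4.76, 5.96, 7.06 and 5.02 in sham mice, a difference of -0.90 ± 0.43 (SE; adjusted p = 0.822 in limma, unadjusted p = 0.0624). Without sham mouse 3 that difference was -0.44. Zap70, the kinase gene of the receptor complex, and Sh2d1a, which encodes the adaptor SAP, had means of 4.52 and 4.36, under the median of all values, and spanned 1.28 and 2.03.

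Of the transcription factor genes of T cells, 3 of 4 spanned less than 1 log2 unit. Lef1, a factor of naive T cells, stood at 5.98, 5.11, 4.44 and 5.29 in irradiated mice, against 5.49, 6.27, 6.92 and 4.84 in sham mice. Foxp3, the factor of regulatory T cells, spanned 0.55, Gata3, of helper T and innate lymphoid cells, 0.38, and Bcl11b, of T lineage commitment, 0.83. The spans of Foxp3 and Gata3 lay below the median span of all genes. Of the shared factors, Eomes stood at 4.88, 4.43, 4.71 and 4.52 in irradiated mice, against 4.37, 5.34, 5.71 and 4.12 in sham mice, and Tbx21, which encodes T-bet, spanned 1.03. Sham mice 2 and 3 were the highest arrays for Eomes.

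**Figure D2:**
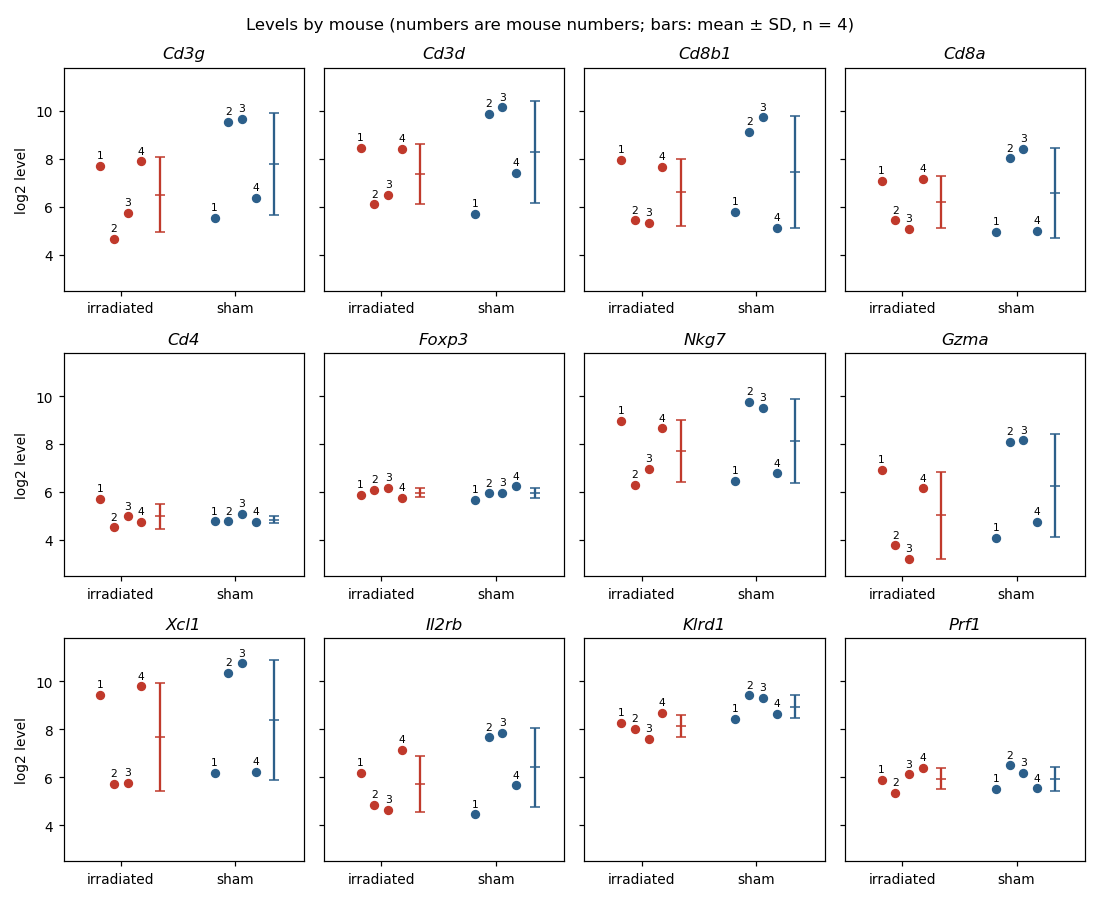
Points are the log2 levels of 12 genes in single mice, irradiated left of sham, with the mouse number above each point; bars are the mean ± SD of 4 mice. Cd3g, Cd8b1, Nkg7, Gzma and Xcl1 split each group into a higher and a lower pair of mice, whereas Foxp3 is between 5.68 and 6.23.

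The cytotoxic granule genes spanned 1.16 to 4.92 over the 8 arrays, against 4.27 to 4.99 for the CD3 genes. Nkg7, a granule membrane protein of NK and cytotoxic T cells, stood at 8.98, 6.30, 6.97 and 8.65 in irradiated mice 1 to 4, against 6.45, 9.76, 9.52 and 6.78 in sham mice 1 to 4. Irradiated mice 1 and 4 and sham mice 2 and 3 lay above the other 4 mice with a gap of more than 1 log2 unit. The group difference was -0.40 ± 0.84 (SE; 95% interval -2.27 to 1.47; adjusted p = 0.953 in limma; two-sided exact permutation p = 0.6). Gzma, which encodes granzyme A, stood at 6.93, 3.77, 3.23 and 6.15 in irradiated mice, against 4.07, 8.08, 8.15 and 4.77 in sham mice, a 30.3-fold span whose low end lies under the median of all values. Gzmb, which encodes granzyme B, spanned 2.94. Prf1, which encodes perforin, spanned 1.16 and did not keep the order of the granzymes: irradiated mouse 4, at 6.40, lay between sham mouse 2 at 6.50 and sham mouse 3 at 6.17.

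The genes of 2 secreted products followed the granule genes. Xcl1, a chemokine of NK and CD8 T cells that attracts cross-presenting dendritic cells, stood at 9.45, 5.73, 5.76 and 9.79 in irradiated mice, against 6.19, 10.35, 10.75 and 6.24 in sham mice. Its span of 5.02, or 32.4-fold, was the widest of the 36, with the 4 low arrays between 5.73 and 6.24 and the 4 high arrays between 9.45 and 10.75. Ifng, which encodes interferon gamma, spanned 2.96, with sham mouse 3 highest at 7.38 and sham mouse 1 lowest at 4.42.

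Apart from Il2rb, NK receptor genes spanned less than 2 log2 units. Il2rb, the interleukin 2 and 15 receptor chain of NK and T cells, stood at 6.19, 4.86, 4.64 and 7.13 in irradiated mice, against 4.45, 7.66, 7.86 and 5.66 in sham mice. Its 4 highest arrays were those of the CD3 genes. Klrd1, which encodes CD94, stood at 8.27, 8.01, 7.60 and 8.69 in irradiated mice, against 8.44, 9.41, 9.31 and 8.63 in sham mice. Irradiated mouse 4 lay above sham mice 1 and 4, so the groups overlapped. Klrk1, which encodes NKG2D and lies next to Klrd1, spanned 1.53 and was highest in irradiated mouse 1, at 8.28. Ncr1, which encodes NKp46 and marks NK cells among these genes, had a mean of 4.66, under the median of all values, with 4.09 to 4.74 in irradiated mice and 4.17 to 5.62 in sham mice. At these low levels its 4 highest arrays were also those of the CD3 genes. Klrb1c, the NK1.1 gene of C57BL/6 mice, stood at 4.50 to 5.12 in irradiated and 4.25 to 5.51 in sham mice, and is uncertain where its probes also detect close relatives.

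T cell genes were set against NK and cytotoxic genes within each array. The mean level of the 23 T cell genes was 5.99, 5.22, 5.14 and 6.03 in irradiated mice 1 to 4, against 5.23, 6.72, 7.08 and 5.40 in sham mice 1 to 4. That of the 11 NK and cytotoxic genes was 6.86, 5.56, 5.43 and 6.89 in irradiated mice, against 5.52, 7.71, 7.77 and 5.84 in sham mice. Both classes placed irradiated mice 1 and 4 and sham mice 2 and 3 above the other 4. The T cell mean minus the NK and cytotoxic mean was -0.59 ± 0.32 in irradiated mice and -0.60 ± 0.31 in sham mice (SD, n = 4 each), a difference of 0.01. By mouse it was -0.87, -0.34, -0.29 and -0.86 in irradiated mice, against -0.28, -0.98, -0.69 and -0.44 in sham mice. It was thus lowest on the arrays where both classes were high. Several of the 11 genes are also genes of T cells, so it is not read as a balance of T to NK cells. The difference between the groups was -0.23 without sham mice 2 and 3 and 0.29 without irradiated mice 1 and 4. For the 2 marker genes alone, Cd3g minus Nkg7 was -1.27, -1.63, -1.23 and -0.76 in irradiated mice, against -0.92, -0.23, 0.15 and -0.43 in sham mice. The groups overlapped only through irradiated mouse 4 and sham mouse 1, and the difference of -0.87 gave a two-sided exact permutation p of 0.0571, where the smallest possible is 0.0286. Nkg7 is also a gene of cytotoxic T cells, so this difference is not read as a balance of T to NK cells either. Another pair, Cd3e minus Ncr1, differed by -0.67 between the groups and was not tested.

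**Figure D3:**
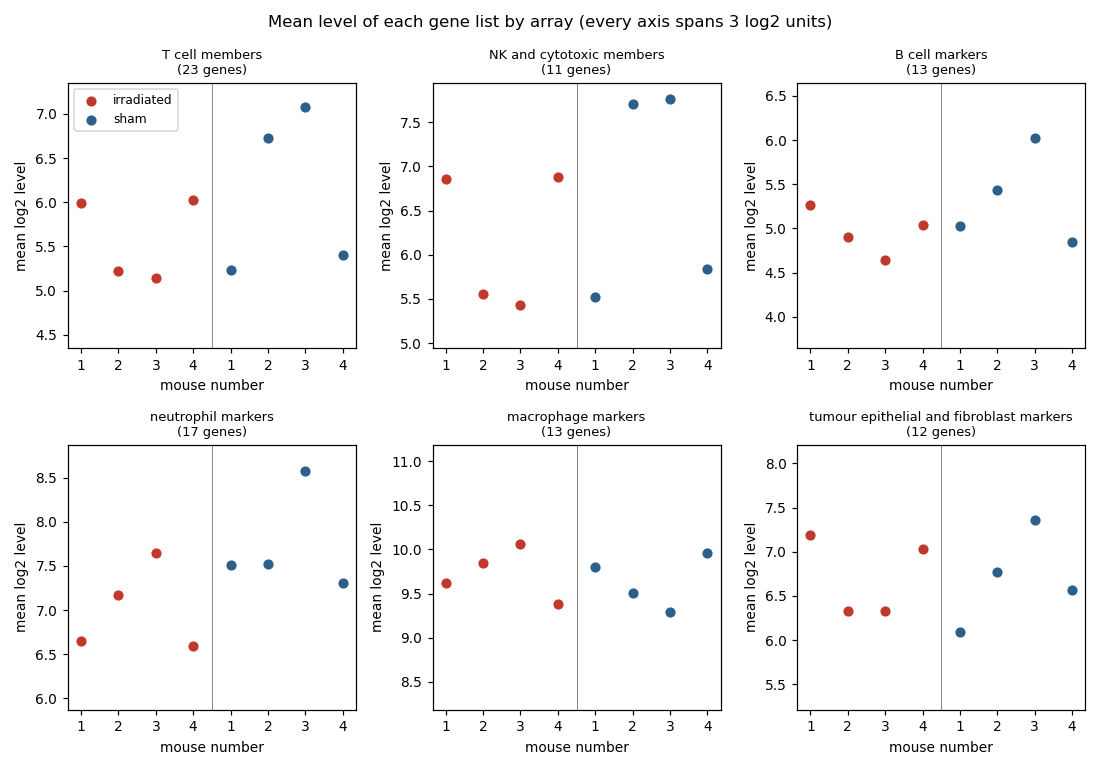
Points are mean log2 levels of 6 gene lists on each array, irradiated mice 1 to 4 (red) left of sham mice 1 to 4 (blue), with every vertical axis spanning 3 log2 units. The T cell and the NK and cytotoxic lists share their order of high and low arrays, the macrophage list runs between 9.30 and 10.06, and the neutrophil list is highest in sham mouse 3.

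The comparison of irradiated with sham mice asked which transcripts of the sorted cells are associated with irradiation, and gave no call for these genes. At a Benjamini-Hochberg adjusted p under 0.05 in limma 0 of the 36 passed, as did 0% of all 22180 genes. At an unadjusted p under 0.05, Klrd1 alone was lower, 1 of 36 against 4.03% of all genes, and 0 of 36 were higher, against 2.05%. The groups did not overlap for 0 of 36 genes in either direction, against 2.56% of all genes with irradiated mice lower and 1.12% with irradiated mice higher. In sign, 32 of the 36 were lower in irradiated mice, against 57.8% of all genes, and Cd4, Gata3, Foxp3 and Prf1 were higher, by 0.0083 to 0.15.

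The median difference was -0.40 for the 23 T cell genes and -0.54 for the 11 NK and cytotoxic genes, against -0.03 for all genes. This sign rested on sham mice 2 and 3. Without both, a setting chosen after seeing the data, 32 of the 36 genes were higher in irradiated mice, against 4 lower, and the medians were 0.14 for T cell and 0.47 for NK and cytotoxic genes. At an unadjusted p under 0.05, Sh2d1a, Eomes and Ifng were then higher and none of the 36 was lower, against 2.37% and 4.31% of all genes. Sham mice 2 and 3 were left out because most of these genes were highest there, so this shift follows from the choice and is no test. Without irradiated mice 1 and 4, likewise chosen after their high levels were seen, the medians were -0.66 and -1.09. In that setting, which is no test either, 7 genes were lower at an unadjusted p under 0.05, against 3.99% of all genes: Cd3e, Cd2, Thy1, Ctla4, Klrd1, Klrk1 and Gzma. The count was also 7 without sham mouse 1, against 4.37% of all genes, and 5 without sham mouse 4, against 3.36%. It was 2 without irradiated mouse 1, against 4.17% of all genes, and 2 without irradiated mouse 4, against 3.5%. The difference of Cd3g was 0.56 without sham mice 2 and 3 and -2.56 without irradiated mice 1 and 4.

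Klrd1 averaged 8.14 ± 0.46 in irradiated mice and 8.95 ± 0.48 in sham mice (SD, n = 4 each), a difference of -0.81 ± 0.27 (SE; adjusted p = 0.819 in limma, unadjusted p = 0.0132). It ranged from -0.99 to -0.63 with each mouse left out in turn, and was -0.40 (unadjusted p = 0.175 in limma) without sham mice 2 and 3. The intervals were wide: the median within-group SD was 0.65 for the 36 genes and 0.19 for all genes, and the median 95% interval reached 0.81 to either side for the 36, against 0.30 for all genes.

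**Figure D4:**
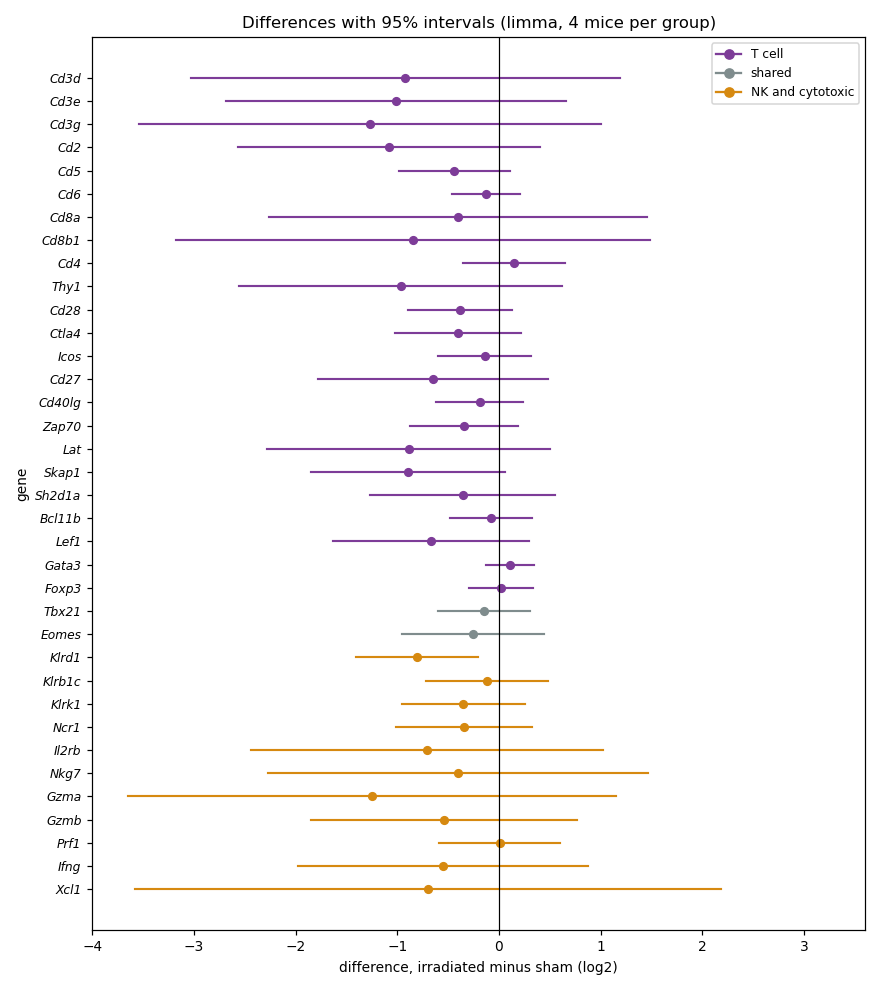
Points are log2 differences of the 36 genes (irradiated minus sham) and lines their 95% intervals from limma, over 4 mice per group, coloured by class. The interval of Klrd1 is the only one that leaves out 0, and those of Cd3d, Cd3g, Cd8b1, Gzma and Xcl1 are more than 4 log2 units wide.

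Further genes of both lineages were listed from textbook knowledge. Of all genes, 57.8% were lower in irradiated mice by sign and 4.03% were lower at an unadjusted p under 0.05. Of 34 other T cell genes 32 were measured, 28 lower and 4 higher in irradiated mice, with 1 at an unadjusted p under 0.05 and 0 after adjustment in limma. That 1, Il7r, the interleukin 7 receptor gene, was lower in irradiated mice (-0.87 ± 0.26, SE; adjusted p = 0.819 in limma), and the groups did not overlap, as for 2.56% of all genes with irradiated mice lower. Its order was not that of the CD3 genes, with 7.64, 8.95, 8.96 and 8.33 in irradiated mice, against 9.19, 9.28, 9.42 and 9.45 in sham mice. Il21r, the interleukin 21 receptor gene, had the next smallest p (0.33 ± 0.17). Of 32 other NK and cytotoxic genes 24 were measured, 18 lower and 6 higher, with 0 at an unadjusted p under 0.05. Klrb1f (0.68 ± 0.33, SE) and Serpinb9b (0.23 ± 0.15) had the smallest p of these. The 4 highest arrays were irradiated mice 1 and 4 and sham mice 2 and 3 for 13 of the 32 and 8 of the 24, against 2.42% of all genes. Most genes of both lists had another order. The order was not limited to T and NK cell genes. Among the marker lists given below, it was that of 4 of 12 tumour epithelial and fibroblast markers and 3 of 13 B cell markers. It was that of 0 of 17 neutrophil, 0 of 9 monocyte and 0 of 13 macrophage markers.

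Genes outside the 36 were ranked by how like their levels were to the mean of each class. Genes with a mean under the median of all values, 4.70, were left out of this ranking. By Pearson's r over the 8 arrays, a description in which the arrays are shared and sham mice 2 and 3 lie apart, the nearest was Ctsw, which encodes the lymphocyte protease cathepsin W, at 0.98. It was also the nearest named gene to the NK and cytotoxic mean, at 0.98, behind 1 predicted gene or receptor segment. Without sham mice 2 and 3 the r of Ctsw was 0.95 with the T cell and 0.96 with the NK and cytotoxic mean. The next 9 for the T cell mean, at 0.97 to 0.98, were Rgs14, Cd226, Prkcq, Itm2a, Slc39a10, Gimap6, Gimap5, Phf6 and Cd96 (1 predicted gene or receptor segment ranked among them is only counted), of which Cd226 and Cd96 encode paired activating and inhibitory receptors of T and NK cells. For the NK and cytotoxic mean they were Gimap4, Stk26, Cdh5, Cd7, Cd226, Prkcq, F13a1, Snord104 and Cxcr6, at 0.95 to 0.98, with 2 predicted genes or receptor segments above Cxcr6 only counted. Their spans ran from 0.43 for Snord104 and 0.72 for F13a1, with means of 11.02 and 9.56, to 3.44 for Cd7. Likeness over the arrays does not name the cell that a transcript came from.

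Markers of other cell types also differed between these arrays. Their counts stand beside the same shares of all genes, 57.8% lower by sign and 4.03% lower at an unadjusted p under 0.05. B cell markers (13 of 15 measured, 11 lower and 2 higher in irradiated mice, 1 at an unadjusted p under 0.05) averaged 4.64 to 5.27 in irradiated and 4.85 to 6.02 in sham mice, highest in sham mouse 3. Neutrophil markers (17 of 17 measured, 14 lower and 3 higher, 1 at an unadjusted p under 0.05) averaged 6.60 to 7.65 in irradiated and 7.31 to 8.57 in sham mice. That 1 was Prtn3 (-0.44 ± 0.15, SE; adjusted p = 0.819 in limma). Camp, the gene of a granule peptide of neutrophil precursors, stood at 3.08 to 3.69 in irradiated mice, against 3.08, 8.02, 10.10 and 3.34 in sham mice 1 to 4. It was thus high in the sham mice with high T and NK genes but not in irradiated mice 1 and 4. Cxcr2, a chemokine receptor gene of mature neutrophils picked after its values were seen, ran the other way, with 6.32, 9.05, 10.04 and 6.69 in irradiated mice, against 9.72, 6.95, 7.40 and 9.35 in sham mice. Of other neutrophil markers, likewise picked, Ngp was high in sham mice 2 and 3, at 7.78 and 10.08, as Camp was. Ltf, Mpo and Elane were raised in sham mouse 3 alone, at 9.31, 7.06 and 6.56. Markers of tumour epithelium and fibroblasts (12 of 12 measured, 6 lower and 6 higher) averaged 7.19, 6.33, 6.33 and 7.04 in irradiated mice, against 6.10, 6.77, 7.36 and 6.57 in sham mice. Macrophage markers (13 of 14 measured, 6 lower and 7 higher) averaged 9.62, 9.85, 10.06 and 9.38 in irradiated mice, against 9.81, 9.51, 9.30 and 9.96 in sham mice. Monocyte markers (9 of 10 measured, 5 lower and 4 higher, 1 lower at an unadjusted p under 0.05 in limma) averaged 10.67, 10.53, 10.08 and 10.59 in irradiated mice. In sham mice they averaged 10.40, 10.66, 10.52 and 10.40. No defining marker can be called absent, since detection calls were not used. The part of these markers in the T and NK results was not tested.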

How the data were processed

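RNA of sorted cells from 8 mice was hybridised to Affymetrix arrays, 1 per mouse. The deposited array values fit a log2 scale by their range. RMA and Partek are named for them in the submitters' processing notes, and no version or setting is given in the sources used here. Array medians ran from 4.68 to 4.73 and arrays correlated at 0.976 to 0.988. The number of arrays limits the precision, and p-values rest on the spread between mice, 1 array each. Of 34365 rows, 23521 carry 1 gene symbol, 1814 several and 9030 none in the platform annotation; the row with the highest mean was kept per symbol. Groups were taken from the sample titles. Limma 3.58.1 in R 4.3.3 compared irradiated with sham mice over all 22180 genes (lmFit and eBayes, two-sided, Benjamini-Hochberg) and was tested on simulated data. No filter on dim genes was used in the main limma comparison, and in 4 of the 36 the mean lay below 4.70, the median over all values. The ranking by likeness to each class mean left out genes with a mean below it. Symbols matched RefSeq, GRCm38.p6, for all 36. Values on every array are given for Cd3g, Nkg7, the gene of each role with the widest span, the gene of each class with the smallest p and any of the 36 whose groups did not overlap (none); other genes given in full were picked after their values were seen. From other lists the 2 genes with the smallest p were eligible, with the sort markers and the 10 genes most like each class mean. The genes, lists and tests were chosen with earlier results of these data known. Alternatives were quantile normalization, array medians subtracted, dim genes left out, averaging the rows of a symbol, array weights, a variance prior with trend and robust fitting, mouse number as a blocking factor and each mouse left out; leaving out sham mice 2 and 3, or irradiated mice 1 and 4, was added after seeing the data. Plots were drawn with matplotlib 3.10.9.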

Additional observations from a re-analysis of the deposited data

Results flagged for a closer look

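In 1 of 76 groups of 4 mice examined, 1 mouse lay far from the other 3 for its group's range. The level of Cd4 was 5.09 in sham mouse 3, against 4.75 to 4.78 in the other 3 sham mice, and the gap made up 0.898 of the range. Chance flags about 1 in 20 groups. The wider differences of the CD3, CD8 and granule genes put 2 mice high in each group and are not picked out by this rule.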

How the results depend on the processing

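The count of all genes past the adjusted threshold in limma was 0 to 1 with each mouse left out (1 without irradiated mouse 1) and 0 under every other alternative run; at an unadjusted p under 0.05 it was 1347 genes. The count of the 36 genes lower at an unadjusted p under 0.05 was 1 under the 7 alternatives that kept all mice, 1 to 7 with each mouse left out, 0 without sham mice 2 and 3 and 7 without irradiated mice 1 and 4. The median difference of T cell genes ran from -0.68 to -0.19 and that of NK and cytotoxic genes from -0.98 to -0.080 with each mouse left out, and the difference of the T cell minus NK and cytotoxic level from -0.12 to 0.12. Mouse numbers are not stated to pair the groups. Deviations of same-numbered mice correlated at -0.28 to -0.14, which cannot exclude a pairing. With the replicate block, the counts stayed at 0 and 1, the T minus NK difference at 0.01 and the median differences at -0.40 and -0.54. It changed no call, and 1065 genes had an unadjusted p under 0.05. Without sham mice 2 and 3, signs turned for 28 genes: Cd3d 0.80, Cd3e 0.22, Cd3g 0.56, Cd2 0.12, Cd5 0.039, Cd6 0.14, Cd8a 1.21, Cd8b1 1.14, Thy1 0.31, Cd28 0.069, Icos 0.12, Cd27 0.40, Cd40lg 0.075, Zap70 0.043, Lat 0.25, Sh2d1a 0.48, Bcl11b 0.12, Lef1 0.044, Tbx21 0.20, Eomes 0.39, Klrb1c 0.36, Ncr1 0.24, Il2rb 0.65, Nkg7 1.11, Gzma 0.60, Gzmb 0.47, Ifng 0.80 and Xcl1 1.47. Without irradiated mice 1 and 4 they turned for Cd4 (-0.093) and Prf1 (-0.20). With 1 mouse left out they turned for 12 genes, and the differences then ranged from -0.95 to 0.20 for Cd8a, -0.30 to 0.0093 for Icos, -0.30 to 0.044 for Tbx21, -0.37 to 0.050 for Klrb1c, -0.96 to 0.14 for Nkg7, -0.67 to 0.0062 for Sh2d1a, -0.21 to 0.061 for Bcl11b, -0.51 to 0.023 for Eomes, -1.43 to 0.091 for Xcl1, -0.098 to 0.30 for Cd4, -0.071 to 0.11 for Foxp3 and -0.15 to 0.21 for Prf1. The alternatives that kept all mice turned the sign of none of the 36 genes, and with dim genes left out the T minus NK difference was -0.0036. The median differences turned to 0.14 for T cell and 0.47 for NK and cytotoxic genes without sham mice 2 and 3. The cause was not tested.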

Other observations

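Genes that ran against the T and NK cell genes over the 8 arrays, picked after seeing the data, included transcripts abundant in myeloid cells. Ccl3, which encodes an inflammatory chemokine, stood at 11.61, 12.39, 12.59 and 11.75 in irradiated mice 1 to 4, against 12.45, 11.29, 11.25 and 12.17 in sham mice 1 to 4. Its lowest values were thus in the mice with the highest Nkg7, and its group difference was 0.29 ± 0.31 (SE; adjusted p = 0.902 in limma). Gadd45b, a stress response gene, stood at 10.21, 11.19, 11.46 and 10.44 in irradiated mice, against 10.99, 10.08, 9.57 and 11.28 in sham mice. Tiparp, a target of the aryl hydrocarbon receptor, stood at 10.13, 10.90, 11.09 and 10.26 in irradiated mice, against 10.92, 10.12, 9.76 and 10.89 in sham mice. The smaller swings of these abundant transcripts, 1.34 for Ccl3, 1.88 for Gadd45b and 1.34 for Tiparp, compare with spans of 4.99 for Cd3g and 5.02 for Xcl1.

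Col1a2, Klk1 and Klrb1b are given for their order over the arrays; Col1a2 and Klrb1b were picked after their values were seen. Col1a2, a fibroblast collagen gene, stood at 9.67, 7.16, 6.54 and 9.71 in irradiated mice, against 6.80, 8.06, 9.95 and 8.29 in sham mice, high in irradiated mice 1 and 4 as the T and NK genes were. Klk1, a kallikrein gene listed here with plasmacytoid dendritic cell markers, stood at 2.76 to 3.08 in irradiated mice, against 2.62, 5.87, 6.14 and 2.87 in sham mice 1 to 4. Klrb1b, an NK receptor family gene, had 7.21, 10.02, 10.06 and 8.85 in irradiated mice, against 10.05, 9.56, 9.15 and 10.75 in sham mice, and so did not share the order of Klrd1.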
